A study of Saccharomyces cerevisiae with 11 samples.

Results

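The proteasome genes of budding yeast (Saccharomyces cerevisiae) were followed through transcript leader sequencing. They comprise 33 genes for subunits of the proteasome (PRE1 to PRE10, PUP1 to PUP3, SCL1, RPT1 to RPT6, RPN1 to RPN3, RPN5 to RPN13 and SEM1) and RPN4, for their transcriptional activator. The 34 genes were chosen by systematic name, and 33 of them are among the 4551 ORFs (protein-coding genes and 2 pseudogenes) with a leader length in at least 1 library. The ubiquitin receptor gene RPN13 (YLR421C) had no length in any library. In all, the libraries held 240 lengths on these genes. A length says where a transcript begins and nothing about its amount, so the identity of the genes rests on their names, all of which matched the gene table of RefSeq assembly R64.

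The proteasome degrades proteins tagged with ubiquitin. Its core particle is a stack of alpha and beta rings whose inner chamber holds the proteolytic sites, and its regulatory particle binds substrates, removes their ubiquitin and threads them into the core with a ring of ATPases. In yeast, Rpn4 binds a shared promoter element of proteasome genes and activates them, and is itself a short-lived substrate of the proteasome, which gives a feedback loop. The transcript leader, between the cap and the start codon, is the stretch that a scanning ribosome passes before it begins translation. Initiation in the usual scanning mode becomes less efficient when the start codon lies very close to the cap.

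Cultures for every library were harvested in mid-log growth in YPAD, a rich medium with glucose. TL-seq, which sequences the 5′ ends of capped mRNA, was made from 2 biological replicates labelled S288C, the reference strain, and from 1 culture of Sigma 1278b (MAT a, carrying ura3, leu2, trp1 and his3), a strain used to study filamentous growth. In these libraries tobacco acid pyrophosphatase opened the cap before the adaptor was ligated, and a further Sigma library was mock-treated, as a check on ends that carry no cap. In TATL-seq the same ends were sequenced from 7 polysome gradient fractions, 1 library each, of BY4742 (MAT α), a derivative of S288C whose listed alleles are his3∆1, leu2∆0, lys2∆0 and ura3∆0. The labels do not say which fractions were light or heavy. The 2 S288C TL-seq libraries were run on a HiSeq and the 9 others on a Genome Analyzer II. In TL-seq, strain and sequencer therefore cannot be told apart, and within the S288C background neither can method and sequencer. A genome build is named only for the 9 Genome Analyzer II libraries. Any difference in processing of the 2 S288C TL-seq libraries cannot be told apart from these either.

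Lengths were called for 3442 to 3561 ORFs in the S288C TL-seq libraries, 1883 in Sigma, 204 in the control and 2081 to 2483 per fraction. The read depth behind a length is unknown, since the files hold no counts, and a missing length can reflect low abundance, depth or the authors' filters, which cannot be told apart. Of the 33 proteasome genes called anywhere, 26 had a length in both S288C replicates, where 69.1% of all ORFs did, and 15 had one in Sigma, where 41.4% did. In at least 5 of the 7 fractions 22 were called, beside 45.3% of all ORFs, and 13 were called in all 7, beside 26.8%.

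In S288C the proteasome genes had leaders of ordinary length. Their median was 36.5 nt over the 26 called in both replicates, with quartiles of 24.5 and 61.5 nt, beside a median of 41.5 nt and quartiles of 24.5 and 70 nt over 3144 ORFs. None had a mean under 12 nt, where 7.63% of all ORFs lay. Single replicates did lie below it, RPN12 at 7 nt in replicate 1 and PRE3 at 4 nt in replicate 2. Their means, 17.5 and 21 nt, average replicates that differed. RPN4, RPT3 and PUP3 reached 100 nt, 3 of 26, beside 15.1% of all ORFs. In TATL-seq, with each gene's length taken as the median over its fractions, the median was 31 nt over 30 proteasome genes and 39 nt over all 3635 ORFs called. By these medians 5 of 30 were under 12 nt (SCL1, RPT3, RPT4, RPN3 and RPN10), beside 13.1% of all ORFs, and RPN4 alone reached 100 nt, beside 18.3%. In Sigma, RPT3 and RPN12 were under 12 nt, 2 of 15 beside 13.9% of all ORFs, and none reached 100 nt, beside 12.8%. The S288C median was 35 nt for the alpha ring (5 genes, 26 to 44 nt), 46 nt for the beta ring (6 genes, 21 to 102 nt), 24 nt for the ATPase ring (5 genes, 22 to 105 nt), 31 nt for the lid (7 genes, 12 to 93 nt) and 62.5 nt for the scaffold subunits RPN1 and RPN2 (62 and 63 nt). By these means the scaffold genes lay above the 5 alpha ring genes compared, while the alpha ring, beta ring, ATPase ring and lid overlapped. The alpha ring gene PUP2, without an S288C length, had a TATL-seq median of 58 nt. That was above RPN1 and RPN2, with TATL-seq medians of 50 and 56 nt.

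**Figure D1:**
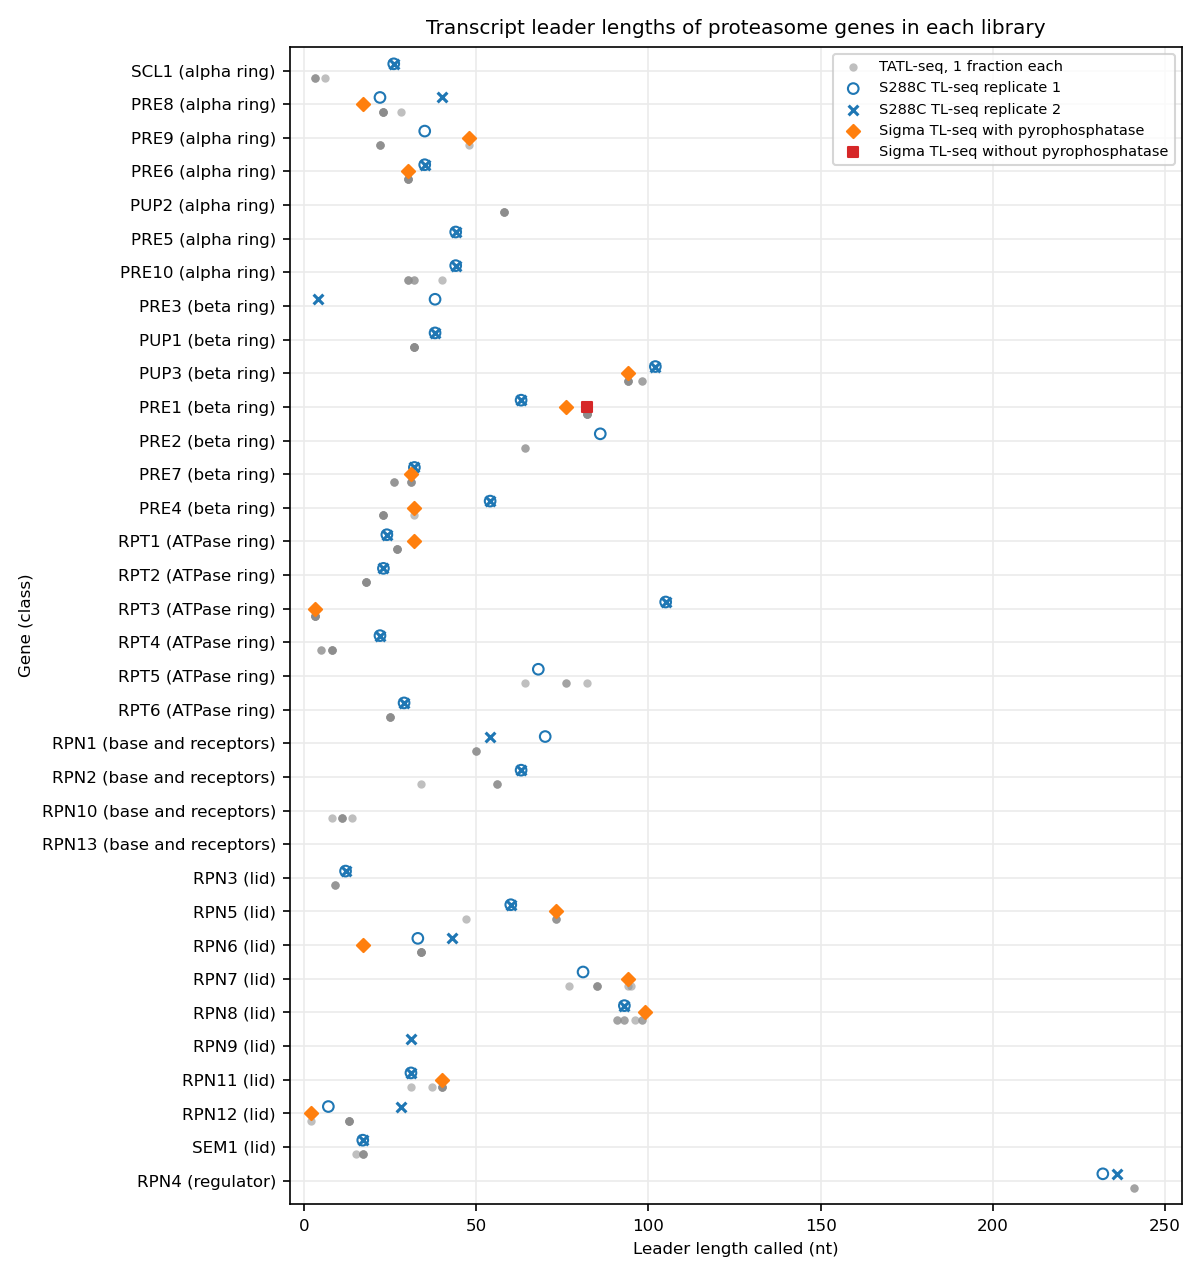
Leader length in nt (x axis) of each of the 34 genes (y axis, with its class) in every library. Open circles and crosses are the S288C replicates, diamonds Sigma with pyrophosphatase, the square the control without it, and gray points the gradient fractions, darker where several share a length; RPN4 lies far to the right of the others, at 232 to 241 nt, and RPN13 has no point.

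**Figure D2:**
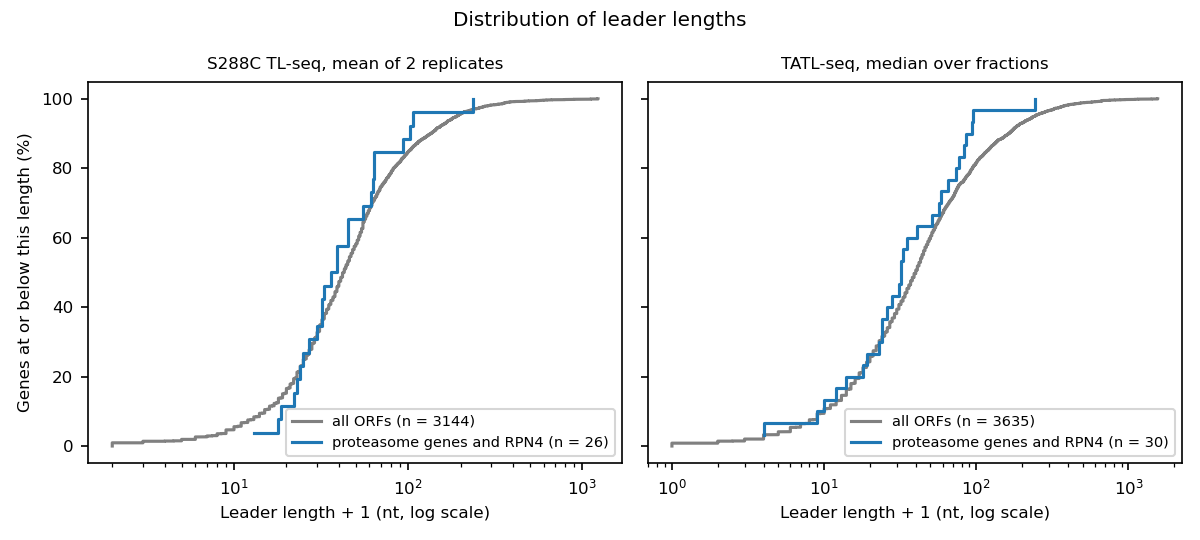
Share of genes (y axis, %) at or below a leader length (x axis, nt plus 1, log scale) for the proteasome genes with RPN4 and for all ORFs, in S288C TL-seq (left) and TATL-seq (right). The curves lie close together, with medians of 36.5 and 41.5 nt on the left and 31 and 39 nt on the right.

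RPN4 (YDL020C), the regulator, stood apart from the subunit genes by its long leader. It measured 232 and 236 nt in the S288C replicates (234 nt ± 2.83, SD, n = 2) and 241 nt in both fractions with a call, 1 and 6. Of the 3144 ORFs called in both S288C replicates, 96 (3.05%) had a longer mean. RPN4 had no length in Sigma, in the control or in fractions 2 to 5 and 7. The longest subunit leader in S288C was 105 nt, so the regulator and the subunits did not overlap in that strain. As the rule joined 1 regulator to 33 subunits by function, this is a description of 1 gene.

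Among the alpha ring genes, whose products form the outer rings and the gate of the core, SCL1 had the shortest lengths and PUP2 the longest. SCL1 (YGL011C) had 26 nt in both S288C replicates, 3 nt in fractions 3, 5 and 7, and in fraction 1 somewhat more, 6 nt, so the fractions with a length all lay below S288C. PRE10 (YOR362C) had 44 nt in both S288C replicates, 30 nt in fractions 2, 6 and 7, 32 nt in fractions 3 and 5, and in fraction 1 the longest of them, 40 nt. Here too every fraction lay below S288C, and fraction 1 lay nearest to it. PRE9 (YGR135W), the alpha subunit that yeast can live without, had 35 nt in S288C replicate 1, 22 nt in fractions 1, 3, 4 and 5, and 48 nt in fraction 6 and in Sigma. It thus had 2 lengths in the gradient, 26 nt apart, and the longer was also the Sigma length. PRE8 (YML092C) had 22 and 40 nt in the S288C replicates, 17 nt in Sigma, 28 nt in fraction 1 and 23 nt in each of the other 6. Its fractions lay between its replicates, which themselves differed by 18 nt. PRE6 (YOL038W) kept 30 nt in Sigma and in fractions 2 to 7, beside 35 nt in both S288C replicates. PUP2 (YGR253C) had 58 nt in fractions 3 to 7 and no length elsewhere, and PRE5 (YMR314W) had 44 nt in both S288C replicates and no length elsewhere.

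The beta ring holds the proteolytic subunits: Pre3 with caspase-like, Pup1 with trypsin-like and Pre2 with chymotrypsin-like activity. PUP1 (YOR157C) was the steadiest of the catalytic genes, with 38 nt in both S288C replicates and 32 nt in all 7 fractions. PRE3 (YJL001W) had 38 nt in S288C replicate 1 and 4 nt in replicate 2, a gap of 34 nt with no other library to set beside it. Of the 34 genes, PRE3 alone spans a number of R64 genome positions that is not a multiple of 3. This span is no measure of its leader. PRE2 (YPR103W) had 86 nt in S288C replicate 1 and 64 nt in fractions 4 and 5.

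The longest leaders of the core particle were those of PUP3, PRE1 and PRE2. PUP3 (YER094C) had 102 nt in both S288C replicates, 94 nt in Sigma and in fractions 1, 2, 5, 6 and 7, and slightly more, 98 nt, in fractions 3 and 4. PRE1 (YER012W) had 63 nt in both S288C replicates, 76 nt in Sigma and 82 nt in all 7 fractions. PRE1 thus had a single length in the S288C replicates and another over the fractions, 19 nt apart. PRE4 (YFR050C) had 54 nt in both S288C replicates, 32 nt in Sigma and in fraction 1, and 23 nt in fractions 2 to 7. PRE7 (YBL041W) had 32 nt in both S288C replicates, 31 nt in Sigma and in 4 fractions (2, 3, 5 and 6), and 26 nt in the others. PRE7 thus had a pair of recurring lengths in the gradient, 5 nt apart, whereas PRE4 kept 1 length except in fraction 1, which was 9 nt longer.

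PRE1 was also the only proteasome gene with a length in the control without pyrophosphatase, at 82 nt, which is the length of all 7 fractions and 6 nt above the Sigma library with the enzyme. Over all ORFs 4.48% had a control length, and of those called in Sigma with the enzyme 9.08% did. The proteasome counts of 1 of 33 and 1 of 15 are near these shares. Each Sigma library is a single library, so this comparison has no replicate check.

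Genes of the ATPase ring, whose subunits unfold substrates and open the gate of the core, had the shortest group median in S288C and held the widest difference between libraries. RPT3 (YDR394W, chromosome IV, 1261681 to 1262967 in R64) had 105 nt in both S288C TL-seq replicates and 3 nt in Sigma and in all 7 fractions. A leader of 3 nt places the 5′ end at position 1261678 on the plus strand. The replicates did not differ, and the other 8 libraries with a length did not differ either, so the 102 nt lay wholly between the sets. Of all 3635 ORFs with a TATL-seq length, 96.7% had a longer one than RPT3 at 3 nt, whereas in S288C 13.9% had a longer one than RPT3 at 105 nt. SCL1 shared the 3 nt TATL-seq median.

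RPT4 (YOR259C) had 22 nt in both S288C replicates, and in the gradient 8 nt except for fractions 5 and 6, with 5 nt. It was below 12 nt in every fraction and above 12 nt in S288C. RPT1 (YKL145W) had 24 nt in both S288C replicates, 32 nt in Sigma and 27 nt in fractions 2 to 7. RPT2 (YDL007W) had 23 nt in both S288C replicates and 18 nt in fractions 2 to 7. RPT6 (YGL048C) had 29 nt in both S288C replicates and 25 nt in fractions 2, 3, 4, 6 and 7. RPT1, RPT2 and RPT6 each had a single length over the fractions with a call, and RPT1 was 8 nt longer in Sigma than in S288C. RPT5 (YOR117W) had 68 nt in S288C replicate 1. In the gradient it had 64 nt (fraction 3), 76 nt (fractions 4 and 6) and 82 nt (fraction 5), the widest range of the ring over fractions.

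The lid and base genes of the regulatory particle ranged from very short to among the longest leaders. RPN3 (YER021W), a lid gene, had 12 nt in both S288C replicates and 9 nt in fractions 1, 3 and 4, which made its mean the shortest of the 26 genes in S288C. RPN12 (YFR052W), also of the lid, had 7 and 28 nt in the S288C replicates, 2 nt in Sigma and in fraction 1, and 13 nt in fractions 2 to 7. The 21 nt between its replicates exceeded its range of 11 nt over the fractions. RPN10 (YHR200W), for a ubiquitin receptor, had 11 nt in fractions 2, 4, 5 and 7, and 3 nt less or more in fractions 1 and 6, at 8 and 14 nt, and no TL-seq length. SEM1 (YDR363W-A), for the small lid subunit, had 17 nt in both S288C replicates and in fractions 1, 4, 5 and 7, and 15 nt in fraction 3. RPN11 (YFR004W), whose product removes ubiquitin from the bound substrate, had 31 nt in both S288C replicates and in fraction 3, 37 nt in fraction 1, and 40 nt in Sigma and in fractions 2, 4, 5, 6 and 7. It is among the few genes in which an S288C length came back in a fraction.

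RPN5 (YDL147W) had 60 nt in both S288C replicates, 47 nt in fraction 1, and 73 nt in Sigma and in fractions 2, 6 and 7. RPN6 (YDL097C) had 33 and 43 nt in the S288C replicates, 17 nt in Sigma and 34 nt in all 7 fractions. In RPN6 Sigma lay outside the S288C replicates and the fractions, whereas in RPN5 Sigma had the length of 3 fractions. RPN7 (YPR108W) had 81 nt in S288C replicate 1, 94 nt in Sigma, 77 nt in fraction 1, 85 nt in fractions 2 to 5, 94 nt in fraction 6 and 95 nt in fraction 7. RPN8 (YOR261C) had 93 nt in both S288C replicates, 99 nt in Sigma and 91 to 98 nt in the 7 fractions. RPN7 and RPN8 had the longest lid leaders. RPN1 (YHR027C) had 70 and 54 nt in the S288C replicates and 50 nt in fractions 1, 4 and 5. RPN2 (YIL075C) had 63 nt in both S288C replicates, 56 nt in fractions 3, 4 and 7, and less, 34 nt, in fraction 2. RPN9 (YDR427W) had 31 nt in S288C replicate 2 and no other length.

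An error of a length could be taken only from the S288C TL-seq replicates. It holds for that set, and Sigma and the fractions have none of their own. The replicates gave the same length for 20 of 26 proteasome genes, beside 76.2% of all ORFs. They differed by 10 nt or more in PRE3, PRE8, RPN1, RPN6 and RPN12, 5 of 26 beside 12.9% of all ORFs. The SD between replicates over the 26 genes was 6.77 nt, and the median difference 0 nt. This SD comes only from the genes whose replicates differed.

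The strain comparison asked for genes whose 5′ end moves between S288C and Sigma. A gene counted as longer or shorter in Sigma when its length there lay 10 nt or more beyond both S288C replicates on 1 side. The replicates also had to be at most 10 nt apart. Of 11 proteasome genes that could be compared, PRE1 and RPN5 were longer in Sigma, each by 13 nt, beside 13.2% longer over 1324 ORFs. RPT3, PRE4 and RPN6 were shorter by 102, 22 and 21 nt in that order, beside 27.6% shorter over all ORFs. Over all ORFs the median difference of Sigma from S288C was −5 nt. With that median subtracted, 5 of 11 were longer, RPT1, RPN8 and RPN11 besides PRE1 and RPN5, beside 19.2% of all ORFs, and 3 were still shorter, RPT3, PRE4 and RPN6, beside 19.5%. The number of longer genes thus depended on that subtraction. No gene has a test here, since there was 1 Sigma library. The reference matters for most of these 5 genes. Set against the TATL-seq median, which shares the sequencer with Sigma, RPT3 and RPN5 had a difference of 0 nt, PRE1 was 6 nt shorter and PRE4 9 nt longer. RPN6 was 17 nt shorter against TATL-seq too. By that reference 1 of 15 proteasome genes was longer in Sigma, PRE9 at 48 against 22 nt (10.5% of all ORFs), and 2 were shorter, RPN6 and RPN12, RPN12 at 2 against 13 nt (9.39% of all ORFs).

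TATL-seq was set against S288C TL-seq, the same reference as in the strain comparison, by the median over fractions and a distance of 10 nt. Of 24 proteasome genes, 6 were shorter in TATL-seq: RPT3 by 102 nt, PRE4 by 31 nt, SCL1 by 23 nt, RPT4 by 14 nt, PRE10 by 13 nt and RPN1 by 12 nt. PRE1 and RPN5 were longer, by 19 and 13 nt. The PRE1 length in the fractions, 82 nt, was also that of the control without pyrophosphatase. Over all 2553 ORFs compared, 33.3% were shorter and 13.5% longer. The call for RPN1 rested on S288C replicate 1, since against replicate 2 alone its difference was −4 nt. With the median difference over all ORFs, −5 nt, subtracted, the differences of RPT4, PRE10 and RPN1 were −9, −8 and −7 nt and no longer reached 10 nt. The shorter genes were then 3 of 24 (RPT3, PRE4 and SCL1), beside 21.6% of all ORFs, and the longer 4 (PRE1, RPN5, RPN11 and RPN4), beside 20.1%. RPT3, PRE4, SCL1, RPT4, PRE10, PRE1 and RPN5 had the same length in both replicates, so these give no scale for their differences, and no gene was tested.

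**Figure D3:**
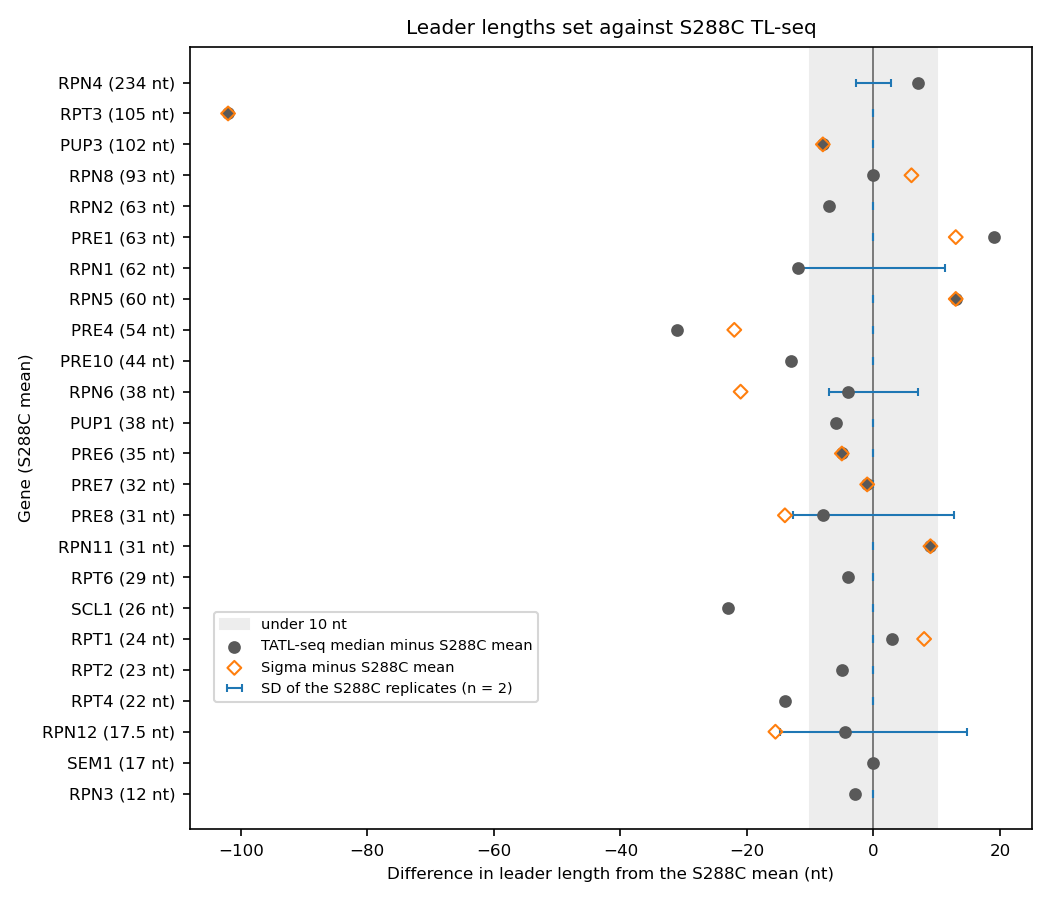
Difference in leader length from the mean of the S288C replicates (x axis, nt) for the 24 proteasome genes with a length in both S288C replicates and in a fraction or Sigma (y axis, with the S288C mean). Filled points are TATL-seq medians, open diamonds Sigma, blue bars the SD of the S288C replicates, and the gray band marks under 10 nt; both sets share the S288C reference, and RPT3 lies alone at −102 nt in both.

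Sigma and the gradient fractions often gave a proteasome gene the very same 5′ end. Of 15 genes called in Sigma and in a fraction, 10 had in Sigma exactly the length of at least 1 fraction (PRE4, PRE6, PRE7, PRE9, PUP3, RPT3, RPN5, RPN7, RPN11 and RPN12), beside 64.1% of all ORFs. By contrast, an S288C TL-seq length came back in a fraction for 3 of 24 genes (RPN8, RPN11 and SEM1), beside 6.07% of all ORFs. The first count is near the share of all ORFs, and the second, 12.5%, rests on 3 genes and was not tested.

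The gradient asked whether the 5′ end of a gene depends on where its mRNA sedimented. Of 22 proteasome genes called in at least 5 fractions, 9 had a single length throughout (PRE1, PRE6, PUP1, PUP2, RPN6, RPT1, RPT2, RPT3 and RPT6), beside 32.8% of all ORFs. A range of 10 nt or more was found in 4, PRE9 (26 nt), RPN7 (18 nt), RPN12 (11 nt) and PRE10 (10 nt), beside 30.9% of all ORFs. The remaining 9 had ranges of 1 to 9 nt. With fraction 1 left out the count of 4 became 1, RPN7, since PRE10 and RPN12 had their outlying length in fraction 1 and PRE9 was then called in too few fractions.

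Fraction 1 differed most often from the others in these genes, as it did over all ORFs. It had another length than the median of the other fractions in 9 of 17 proteasome genes, beside 48.9% of all ORFs, and by 5 nt or more in 6 (27.1% of all ORFs): PRE4, PRE7, PRE8, PRE10, RPN7 and RPN12. In fractions 2 to 7 the count was 3 to 7 of 19 to 21 genes, beside 35.7 to 45.5% of all ORFs. The direction in fraction 1 was mixed, longer in PRE4, PRE8 and PRE10 and shorter in PRE7, RPN7 and RPN12. The lengths of 32 nt for PRE4 and 2 nt for RPN12 in fraction 1 were those of Sigma. This look at single fractions was added after the lengths had been seen, and each fraction is 1 library.

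**Figure D4:**
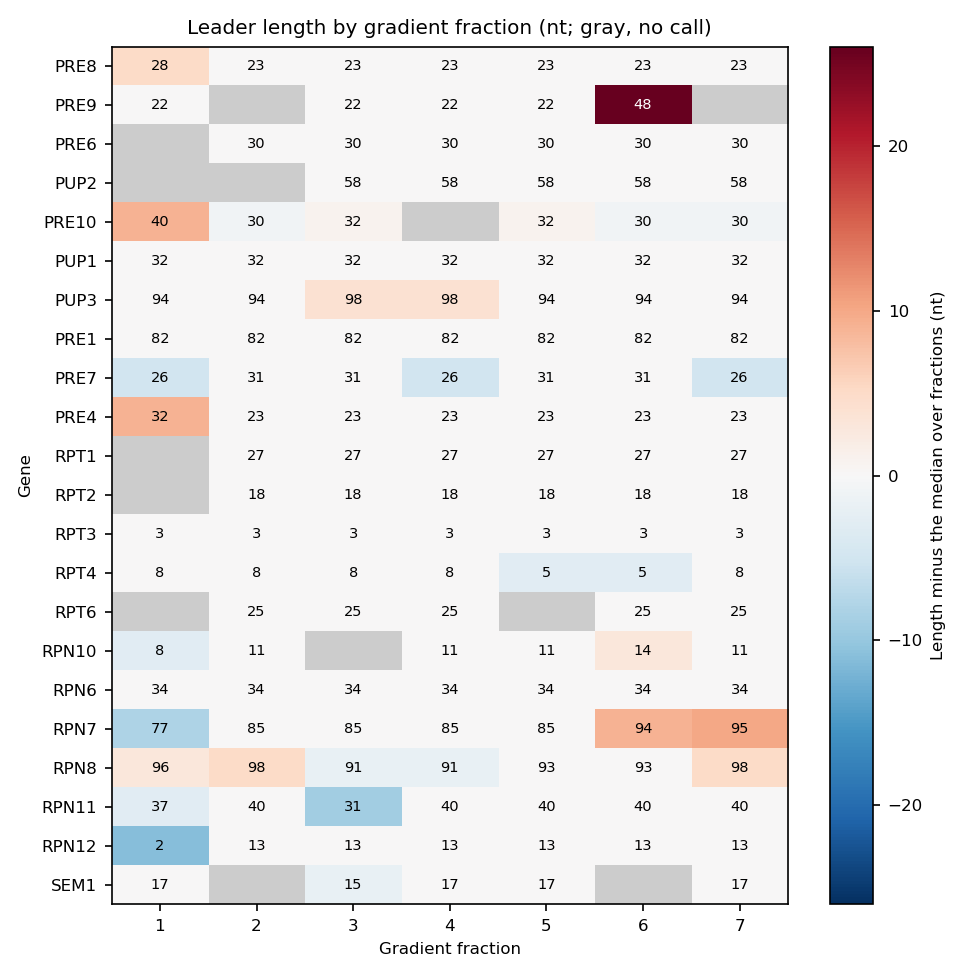
Leader length in nt (numbers in the cells) of the 22 proteasome genes called in at least 5 fractions (y axis) in gradient fractions 1 to 7 (x axis), colored by the difference from the gene's median over fractions (nt), with gray for no call. Of the 22 rows 9 have 1 color in every cell with a length. Departures of more than 5 nt lie in fraction 1 for PRE10, PRE4, RPN7 and RPN12, and in fraction 3 for RPN11. The others lie in fraction 6 for PRE9 and in fractions 6 and 7 for RPN7.

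A steady rise or fall over the fractions was tested by Spearman rank correlation with fraction number, two-sided, with exact permutation over every order of the 7 fractions. Benjamini-Hochberg adjustment ran over the 795 ORFs that had a length in every fraction and did not keep 1 length throughout. None of the 795 passed (0.0%), while 36 (4.53%) had an unadjusted p under 0.05, and Kendall's correlation gave 0 and 28 (3.52%). Of 9 proteasome genes tested, RPN7, which went from 77 nt in fraction 1 to 95 nt in fraction 7, had the lowest unadjusted p (exact permutation p = 0.00952, adjusted p = 0.700). The other 8 had adjusted p-values of 0.700 to 1 by the same exact permutation test. Repeated lengths limit how small p can be. PRE4, PRE8 and RPN12, with the same length in 6 fractions, had an unadjusted exact permutation p = 0.286. RPN7 did not pass either, although its length never fell from 1 fraction to the next. The test therefore cannot show that a trend is absent in these genes.

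Genes that act with the proteasome were described from lists of 15, 16 and 4 genes. Of 15 genes for assembly chaperones and associated proteins, 12 had lengths in both S288C replicates, with a median of 27.5 nt (14 to 124 nt). By the rule for Sigma 2 of 6 were shorter and none longer, beside 27.6% shorter and 13.2% longer over all ORFs. The 2 were UMP1 and ADD66, both for chaperones of core particle assembly. With the median difference over all ORFs subtracted, 1 was shorter, UMP1, and 1 longer, beside 19.5% and 19.2% of all ORFs. UMP1 had 29 nt in both S288C replicates, 13 nt in Sigma and in fractions 1 and 3, 22 nt in fraction 5, and 34 to 36 nt in fractions 2, 4, 6 and 7. Its lengths fell on both sides of S288C. ADD66 had 36 nt in both S288C replicates, 22 nt in Sigma and 12 to 23 nt in the fractions. HUL5, for a ubiquitin ligase bound to the proteasome, had 19 nt in both S288C replicates and 38 to 57 nt in fractions 1 to 5. A range of 10 nt or more was found in 3 of 6, these same genes, beside 30.9% of all ORFs.

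Of 16 genes for ubiquitin, its conjugation, shuttle receptors and the Cdc48 segregase, 13 were called in both S288C replicates, with a median of 50 nt (9 to 160 nt). In TATL-seq the median over fractions was at least 10 nt below S288C in 5 of 9 (33.3% of all ORFs) and above it in none. The 5 include a gene called in fraction 5 alone. With the median difference over all ORFs subtracted, 3 of 9 were shorter and 1 longer, beside 21.6% and 20.1% of all ORFs. The AAA-ATPase gene CDC48 had 51 nt in both S288C replicates and 27 to 52 nt in 6 fractions. DSK2, for a shuttle receptor, had 39 nt in both S288C replicates and 16 to 34 nt in 5 fractions. UBC5, for a conjugating enzyme, had 42 and 47 nt in the S288C replicates, 43 nt in Sigma, 76 nt in the control, and 30 to 45 nt in 6 fractions. These 3 had a range of 10 nt or more over fractions, 3 of 6 compared, beside 30.9% of all ORFs. SHP1, for a cofactor of Cdc48, had 42 nt in both S288C replicates and 27 nt in Sigma. It and the ubiquitin gene UBI4 were the 2 of 3 shorter in Sigma, beside 27.6% of all ORFs.

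Of the 4 genes for transcription factors that act on RPN4, 2 had lengths in both S288C replicates, and both exceeded 100 nt, with means of 131 and 137 nt beside 234 nt for RPN4. Over all ORFs 15.1% reached 100 nt. PDR1 had 131 nt in both replicates and 127 nt in Sigma. YAP1 had 150 and 124 nt in the replicates and 145 nt in fractions 1 to 5 and 7. PDR3 and HSF1 had 67 and 37 nt in S288C replicate 2 and no other length. These 4 genes are named after their values were seen.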

How the data were processed

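Each file deposited by the authors covers 1 library and pairs gene names with leader lengths in nucleotides, without header, reads or depth. The submitters' processing notes name Bowtie for all libraries and the build sacCer3 for the 9 Genome Analyzer II libraries. Not given in the sources used here are the build of the S288C TL-seq libraries, the annotation, any read minimum and how 1 length was picked for a gene. Samples were grouped by title. The 57 snoRNA and tRNA names were left out, and the RefSeq R64 table gave symbols and positions for all 4551 ORFs.

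Lengths are no counts, so no count test was made. The mean of the S288C replicates, the median over fractions, distances of 10 nt, short leaders under 12 nt, long ones from 100 nt and the exact trend test were used as described with the results. Each share is given beside that over all ORFs, and genes are not replicates. The scripts were tested on simulated data (Python 3.11.15, numpy 2.4.6, pandas 2.3.3). The genes, lists and rules were chosen with earlier results of these data known. All 34 genes are given. Of the lists, genes past the Sigma or range rule are named, at most 4 per list in alphabetical order (an order set after the values were seen), and UBI4 and the regulators of RPN4 beyond that. A search of promoters for the Rpn4 element and of leaders for upstream start codons was planned and not made, since no sequence was used here.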

Additional observations from a re-analysis of the deposited data

How the results depend on the processing

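Counts of proteasome genes past a distance changed with that distance. With 5 nt in place of 10 nt, 5 of 11 were longer and 5 shorter in Sigma than in S288C. Of 24, 4 were longer and 12 shorter in TATL-seq than in S288C, and 10 of 22 varied over fractions. With 20 nt the counts were 0 of 11 longer in Sigma, and 0 longer and 3 shorter of 24 in TATL-seq. By the same distance 1 of 22 varied over fractions and 2 of 26 had differing replicates. With the median difference between sets subtracted, 5 of 11 were longer in Sigma (19.2% of all ORFs). In TATL-seq 4 of 24 were then longer and 3 shorter (20.1% and 21.6% of all ORFs). With the TATL-seq median as the reference for Sigma 1 of 15 was longer, beside 10.5% of all ORFs. The differences of PRE1 (−6 nt) and PRE4 (9 nt) changed sign. With TATL-seq medians from at least 5 fractions 1 of 18 was longer than S288C. Varying genes numbered 2 of 13 called in all 7 fractions, 7 of 28 called in at least 3, and 1 of 20 without fraction 1. Without S288C replicate 1, 2 of 13 were longer and 5 shorter in Sigma, and without replicate 2, 4 of 15 and 3. In TATL-seq 2 of 24 were longer and 7 shorter without replicate 1, and 2 of 28 and 8 without replicate 2. Under 12 nt lay 1 of 27 and 1 of 30. By TATL-seq 5 of 30 were under 12 nt (13.1% of all ORFs) and in Sigma 2 of 15 (13.9%). In S288C 3 of 26 lay under 20 nt. At 100 nt or more were 1 of 30 by TATL-seq (18.3% of all ORFs) and 0 of 15 in Sigma (12.8%). Where no share stands beside a count, none over all ORFs is given, so that count shows only how the setting moves it. The cause of these differences was not tested, other than the distances and gene numbers that the settings set themselves. The median length of 36.5 nt was 31 nt by TATL-seq and 32 nt in Sigma, over other sets of genes, and 38 nt without either replicate. The counts in the control and in the trend test kept their values. Within 3 nt, 11 of 15 Sigma lengths in place of 10 were found in a fraction, beside 77.8% of all ORFs. This tolerance was chosen after seeing the data. Depth is unknown, and 1 library per strain, control and fraction limits every comparison. No paired analysis was possible because only the S288C TL-seq libraries have replicates.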

Other observations

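The genomic surroundings of the proteasome genes were read from the RefSeq R64 table. The nearest upstream protein-coding gene lay on the opposite strand for 21 of the 34 genes and on the same strand for 13, beside 52.4% on the opposite strand over 4544 ORFs. The median distance between ORFs was 386 nt (219 to 1822 nt), beside 452.5 nt over those ORFs. No leader was longer than this distance, 0 of the 33 genes with a length, beside 0.484% of all ORFs. RPN10 had the smallest gap (219 nt to NBL1) and PRE1 the largest (1822 nt to TIR1). PRE4 and RPN12 flank the same gene, RET2, for a coat protein subunit of transport vesicles, at 296 and 701 nt. For 12 divergent pairs with TATL-seq medians on both sides, the 5′ ends lay 157 to 1409 nt apart, nearest for RPT6 and ALG13.

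Lengths of S288C TL-seq were most often 5 nt above the TATL-seq median (218 of 2553 ORFs), followed by 4 nt (169 ORFs). The proteasome genes PRE6, PUP1, RPT2, RPT6, RPN6 and RPN12 lay 4 to 6 nt above it, 6 of 24 beside 18.8% of all ORFs. Over all ORFs the median difference was −5 nt for TATL-seq and for Sigma, each against S288C, and over the proteasome genes −4.75 nt (n = 24) and −5 nt (n = 13). The cause was not tested.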
